A study of Mus musculus with 8 samples.

Results

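The cells described here are keratin-rich epithelial cells of mouse lung adenocarcinoma that carried transcripts of alveolar type 1 (AT1) genes together with A2ml1, which encodes an alpha-2-macroglobulin-like protease inhibitor; they are called A2ml1 cells below. They were selected on their own transcripts. A cell barcode entered the epithelial gate with at least 20 unique molecular identifiers (UMIs, counted molecules) of Krt7, Krt8, Krt18 and Cldn4 together, more of these than of the surfactant genes Sftpa1, Sftpb and Sftpc, at most 1 UMI of the leukocyte gene Ptprc and none of the T cell gene Cd3e. Within that gate an A2ml1 cell had at least 4 of the 7 genes Hopx, Ager, A2ml1, Tmem213, S100g, Psca and Akap5 detected, and fewer than 4 of the 7 inflammatory genes Cxcl3, Ly6a, Homer2, Tns4, Cxcl1, Aldh1a3 and Tnip3. Of 24838 cells that passed the quality limits, 721 entered the epithelial gate, and 141 of these (19.6%) were A2ml1 cells. The other 580 keratin-gated cells are the comparison used throughout.

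The tumours came from KPC mice, a genetically engineered model of lung adenocarcinoma in which lentivirus given through the trachea starts the tumours. CRISPR activation restricted to tumour cells was directed by dead guide RNAs, which bring the activator to a gene without cutting it. In the mA1 group the guides were aimed at Malat1, a nuclear long non-coding RNA, and in the Con group at Tomato, a fluorescent-protein sequence that served as control. Tumours of both groups were taken 16 weeks after initiation and comprised 4 of the largest tumours each, processed in 2 libraries per group with 2 hashtags per library. The labels name no strain or age and tie no animal to a library. Both groups carried the same tumour-initiating alleles and activator system, so no untreated tumour enters the comparison. Libraries, not cells, were the replicates, and p-values measure only the spread between these libraries.

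AT1 cells are the thin, very wide cells that cover most of the alveolar surface and across which gas exchange takes place. They arise during development and after injury from progenitors that include alveolar type 2 (AT2) cells, the cuboidal makers of surfactant, by way of a transitional state rich in keratins. Hopx is a homeodomain protein of AT1 cells, Ager the receptor for advanced glycation end products that lies in their basal membrane, and Aqp5 their apical water channel. Lung adenocarcinoma in this family of models is thought to begin mainly in AT2 cells, and AT1 genes are known to appear in part of the tumour cells as tumours progress.

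The A2ml1 cells were unevenly spread over the libraries. Con library 1 held 92 of them, Con library 2 held 7, mA1 library 1 held 27 and mA1 library 2 held 15. As a share of keratin-gated cells this was 24.0% of 384 in Con library 1 (95% Clopper-Pearson interval 19.8 to 28.5) and 7.22% of 97 in Con library 2 (2.95 to 14.3). It was 22.3% of 121 in mA1 library 1 (15.2 to 30.8) and 12.6% of 119 in mA1 library 2 (7.23 to 19.9); these intervals cover counting error only. One library of each group was high and one low, so the groups overlapped. The mean share was 1.87 percentage points higher in mA1 than in Con, with an exact two-sided permutation p of 1, where 2 libraries against 2 can reach no p below 0.33. The sign of this difference depended on the gate: asking for only 3 of the 7 markers gave -2.92 percentage points, and leaving out cells whose barcode was shared between libraries gave -0.169. Among keratin-gated cells with fewer than 4 inflammatory genes the share was 31.1% and 12.5% in Con and 48.2% and 31.9% in mA1, a difference of 18.3 percentage points (exact permutation p = 0.33). Cells with 4 or more inflammatory genes were 88 of 384 and 41 of 97 keratin-gated cells in Con, and 65 of 121 and 72 of 119 in mA1.

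**Figure D1:**
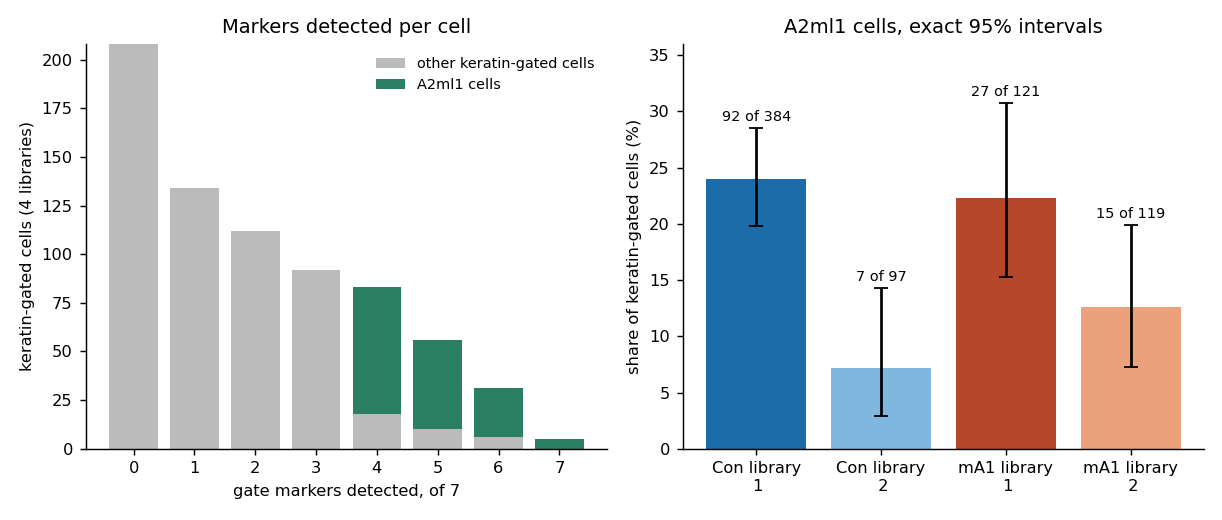
Number of the 7 AT1 and A2ml1 markers detected per keratin-gated cell (left, cells counted over the 4 libraries), and the share of A2ml1 cells among keratin-gated cells in each library with its exact 95% binomial interval (right, percent). Con library 1 and mA1 library 1 stand at 24.0% and 22.3%, Con library 2 and mA1 library 2 at 7.22% and 12.6%.

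Several features of the libraries bear on what follows. Con library 2 contributed only 7 A2ml1 cells with 274841 UMIs in all, against 2981752 in Con library 1, 875073 in mA1 library 1 and 826035 in mA1 library 2, so its values have the widest counting error. It was also the only library with Xist, the X-inactivation RNA, at 975 CPM (the UMIs of a gene per 1000000 summed UMIs of the A2ml1 cells of a library), against at most 0.335 CPM elsewhere, so a difference in sex lies within the Con group. The median UMI count per A2ml1 cell was 27877.5, 36906, 27755 and 53241 in Con library 1, Con library 2, mA1 library 1 and mA1 library 2, the order used for every set of 4 values below. In the other keratin-gated cells of the same libraries it was 20745, 44753, 29220.5 and 39115.5. Between 108 and 330 cell barcodes were shared by each pair of libraries, and 6 A2ml1 cells (1 in Con library 1 and 5 in mA1 library 2) had a barcode that also occurred in another library. Those 6 cells held 70264 to 102701 UMIs, while their 14 counterparts held 508 to 746 UMIs and at most 11 keratin UMIs, and none of the counterparts passed the gate. No A2ml1 cell was called a doublet by Scrublet (a caller that marked no cell at all in Con library 2) or carried both hashtags.

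The gate genes describe how the cells were found and are given with no test. Hopx was detected in 136 of the 141 A2ml1 cells (96.5%), against 31.9% of the other keratin-gated cells and 29.0% of T cells, which have far fewer UMIs and also transcribe Hopx. Ager was detected in 129 (91.5%, 35.5% and 0.923%), A2ml1 in 113 (80.1%, 23.1% and 0.176%) and Akap5, which encodes an anchoring protein for protein kinase A, in 110 (78.0%, 23.3% and 1.67%). S100g, the gene for the calcium-binding protein calbindin D9k, was detected in 81 (57.5%, 11.9% and 0.374%). Psca, a small surface protein of the Ly6 and uPAR family, was detected in 68 (48.2%, 8.28%, and 0 of 4551 T cells). Tmem213, a membrane protein gene, was detected in 38 (27.0%, 2.59% and 0.0220%). The T cell shares, from barcodes that should lack these epithelial genes, give the level that free RNA alone reached in these libraries for every gate gene but Hopx.

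The 7 markers occurred in many combinations. Of the A2ml1 cells, 65 had exactly 4 markers, 46 had 5, 25 had 6 and 5 had all 7, in 28 different combinations of which the commonest was Hopx, Ager, A2ml1 and Akap5 without the others (18 cells). Hopx and Ager were detected together in 124 cells, and 73 cells had Hopx, Ager, A2ml1 and Akap5. A2ml1 itself was missing from 28 cells, and 18 cells had none of Tmem213, S100g and Psca. At the edges of the gate, 66 keratin-gated cells with fewer than 4 inflammatory genes and at least 5000 UMIs had 3 markers, 34 cells with 4 or more markers were left out for their inflammatory genes, 19 of them with exactly 4, and 16 A2ml1 cells had 3 inflammatory genes. The A2ml1 cells were far from the keratin limit, with a median of 349 keratin UMIs and a lowest value of 28.

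The marker levels differed between libraries. Ager, summed over the A2ml1 cells, stood at 1119, 94.6, 1188 and 2037 CPM, against 149, 86.7, 135 and 187 CPM in the other keratin-gated cells. Con library 2 stood apart: Ager was detected in 3 of its 7 A2ml1 cells, against 85 of 92, 26 of 27 and 15 of 15. Hopx was at 345, 98.2, 369 and 413 CPM, against 62.7, 26.5, 60.3 and 40.3 CPM in the others, again lowest in Con library 2. Of its 341 UMIs in mA1 library 2, 197 came from 1 cell. S100g stood at 207, 888, 834 and 228 CPM, but 173 of its 244 UMIs in Con library 2 and 123 of its 188 in mA1 library 2 came from 1 cell each. A2ml1 was at 316, 76.4, 48.0 and 107 CPM, against 62.6, 9.52, 16.3 and 12.2 CPM in the others. Of its 88 UMIs in mA1 library 2, 57 came from 1 cell. Psca was at 85.5, 175, 305 and 178 CPM, and 130 of its 147 UMIs in mA1 library 2 came from 1 cell.

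The keratins that opened the gate were nearly level between A2ml1 cells and the other keratin-gated cells, with mean log2 ratios of 0.08 for Krt7, 0.20 for Krt8, 0.11 for Krt18 and -0.37 for Cldn4, a tight junction protein. Surfactant transcripts were present too. Sftpb, which encodes a surfactant protein needed for the surface film, stood at 2360, 6258, 2575 and 2514 CPM in the A2ml1 cells and at 1864, 1688, 1453 and 1417 CPM in the others. Sftpc, the most AT2-restricted surfactant gene, stood at 489, 146, 885 and 1036 CPM, against 387, 129, 32.6 and 388 CPM. Both were higher in the A2ml1 cells in 4 of 4 libraries, whereas Sftpa1 was lower on average (mean log2 ratio -0.45). Of the Sftpc UMIs in A2ml1 cells, 25 of 40 in Con library 2 and 350 of 774 in mA1 library 1 came from 1 cell each. The surfactant genes were part of the gate, so these values are a description of what it let through.

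Promoter windows are shown for marker genes of the gate and for Sfta2, a gene outside the gate that was higher in these cells, since they are the regulatory sequences closest to the transcripts that define the cells. Each window runs from 250 bases before to 50 bases after a RefSeq transcript start on build GRCm38.p6, and is printed 5′ to 3′ on the strand of the gene in lower case with motif matches in capitals. The windows are A2ml1 at chr6:128581557-128581856 (minus strand), with TATAAA in capitals 30 to 25 bases before the start, Tmem213 at chr6:38109103-38109402 (plus strand), with the NKX2-1 motif CAAGTG in capitals 164 to 159 bases before it, one of the Hopx windows at chr5:77095218-77095517 (minus strand), with the reverse complement of that motif at bases 35 to 40 after it, and Sfta2 at chr17:35649458-35649757 (plus strand), with GGAATG, a TEAD motif, on the plus strand 192 to 187 bases before it and on the minus strand 215 to 210 bases before it.
A2ml1: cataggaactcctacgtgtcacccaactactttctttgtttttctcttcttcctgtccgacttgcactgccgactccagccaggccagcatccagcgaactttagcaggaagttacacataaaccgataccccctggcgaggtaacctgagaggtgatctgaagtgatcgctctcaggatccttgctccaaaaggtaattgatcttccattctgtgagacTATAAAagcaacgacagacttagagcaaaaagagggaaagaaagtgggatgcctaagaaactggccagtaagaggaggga
Tmem213: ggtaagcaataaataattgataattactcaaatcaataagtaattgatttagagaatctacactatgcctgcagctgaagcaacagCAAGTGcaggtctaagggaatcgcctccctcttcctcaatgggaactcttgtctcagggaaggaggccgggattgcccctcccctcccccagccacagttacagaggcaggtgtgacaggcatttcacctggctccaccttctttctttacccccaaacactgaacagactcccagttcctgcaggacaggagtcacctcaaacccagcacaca
Hopx: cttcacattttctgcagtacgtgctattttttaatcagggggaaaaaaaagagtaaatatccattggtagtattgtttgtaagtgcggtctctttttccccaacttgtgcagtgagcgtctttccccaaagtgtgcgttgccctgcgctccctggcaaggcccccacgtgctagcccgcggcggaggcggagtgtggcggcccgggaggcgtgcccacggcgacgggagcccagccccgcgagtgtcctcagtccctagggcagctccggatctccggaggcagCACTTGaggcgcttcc
Sfta2: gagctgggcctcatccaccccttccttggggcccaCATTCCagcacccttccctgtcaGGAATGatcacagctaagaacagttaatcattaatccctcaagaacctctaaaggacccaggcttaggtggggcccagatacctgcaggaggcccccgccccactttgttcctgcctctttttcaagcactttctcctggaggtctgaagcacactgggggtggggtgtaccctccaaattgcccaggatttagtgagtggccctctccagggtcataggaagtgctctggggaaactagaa
Of 29 gate genes and genes higher in the A2ml1 cells that were looked up, 25 had a window in the RefSeq table, with 31 windows in all. Searched on both strands, the TEAD motif GGAATG was in 3 of the 31 windows (9.68%), against 14.7% of all 32851 windows. The AP-1 motif TGANTCA was in 1 (3.23% against 7.81%), the NKX2-1 motif CAAGTG in 5 (16.1% against 13.6%) and TATAAA in 4 (12.9% against 13.6%). The motifs were thus about as frequent as, or less frequent than, in all windows, and a match is a run of letters, not a site of binding.

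Outside the gate, the A2ml1 cells were compared with the other keratin-gated cells of the same library as a description, without a test, because all genes come from the cells the gate sorted. Values are log2 ratios of CPM + 1 of the summed counts. Of 5852 genes with a mean of at least 20 CPM in the higher class, other than gate, mitochondrial and ribosomal protein genes, 39 (0.666%) were at least 2-fold higher in 4 of 4 libraries and 34 (0.581%) at least 2-fold lower. In 4 of 4 libraries, 956 genes (16.3%) were higher by any amount and 741 (12.7%) lower, and the median of all 5852 mean log2 ratios was 0.0061. When only keratin-gated cells with fewer than 4 inflammatory genes served as the comparison, 21 genes were 2-fold higher and 22 were 2-fold lower in 4 of 4 libraries, of which 12 and 14 were among the 39 and 34.

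Timp3, an inhibitor of metalloproteinases that is held in the extracellular matrix, had the largest smallest ratio. It stood at 116, 131, 183 and 137 CPM in the A2ml1 cells and at 25.6, 11.6, 33.7 and 23.5 CPM in the other keratin-gated cells, a mean log2 ratio of 2.61 ± 0.54 (SD, n = 4 libraries). Every A2ml1 value lay above every value of the other cells. The rule took Timp3 for its ratio in every library, so this separation adds no evidence. The share of all genes without overlap was not counted. In the A2ml1 cells of Con library 2, 19 of the 36 Timp3 UMIs came from 1 cell. Clic5, a chloride intracellular channel protein abundant in AT1 cells, stood at 383, 157, 442 and 709 CPM against 107, 64.8, 107 and 132 CPM (mean log2 ratio 1.88). Its relative Clic3 stood at 182, 386, 175 and 258 CPM against 39.5, 45.3, 67.4 and 41.4 CPM (2.30). Both chloride channel genes were also without overlap between the classes, which the rule that took them favoured. Clic5 was lowest in Con library 2, as Ager and Hopx were. Rtkn2, a rhotekin known as an AT1 transcript, stood at 35.9, 10.9, 36.6 and 14.5 CPM against 5.56, 3.72, 0.857 and 2.56 CPM (2.57).

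Water and sodium transport genes of the alveolar epithelium were higher too. Aqp5 stood at 1197, 1703, 1475 and 1685 CPM in the A2ml1 cells, against 554, 454, 561 and 642 CPM, a mean log2 ratio of 1.45 ± 0.33 (SD, n = 4 libraries). Here Con library 2 was the highest library, not the lowest. Scnn1a, the alpha subunit of the epithelial sodium channel through which the lung clears fluid, stood at 56.0, 102, 86.9 and 150 CPM against 24.7, 22.6, 33.1 and 28.8 CPM (1.75). The list of ion and water transport genes as a whole was mixed. Of its 15 genes above the CPM floor, 5 were higher in 4 of 4 libraries and 4 lower, beside 16.3% and 12.7% of all genes. The median mean log2 ratio was -0.07 (0.24 against the cells with fewer than 4 inflammatory genes).

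**Figure D2:**
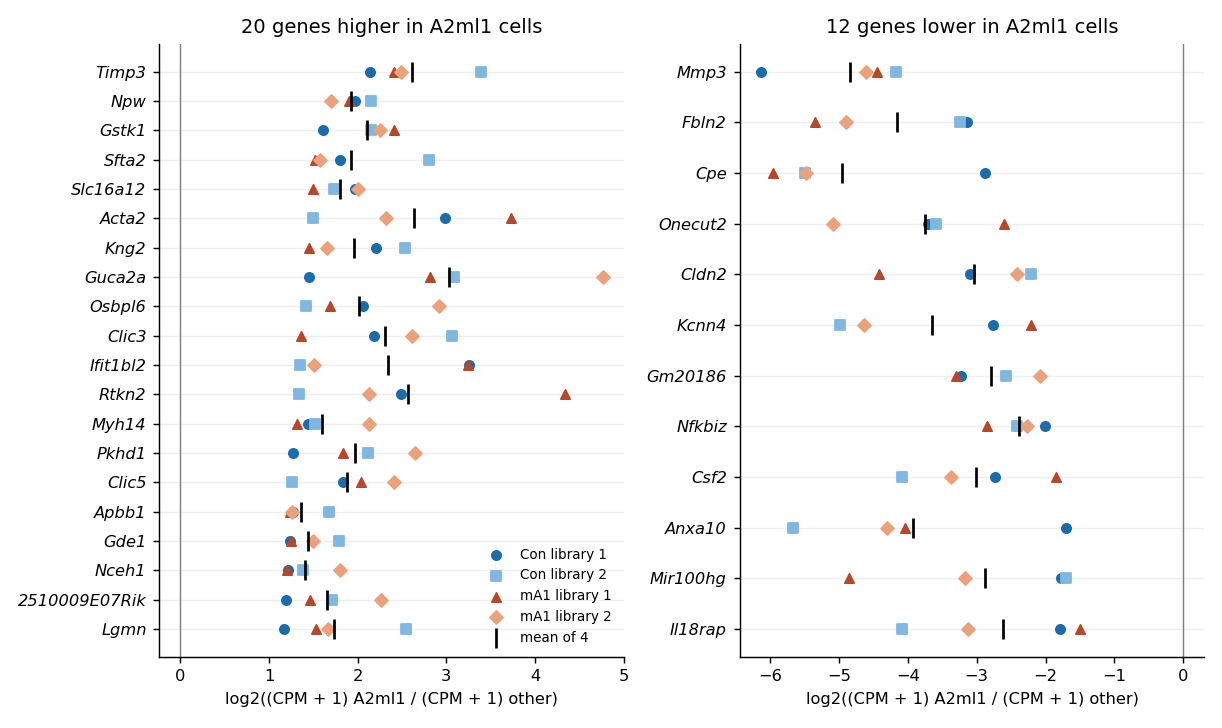
Log2 ratio of CPM + 1, A2ml1 cells over other keratin-gated cells, in each of the 4 libraries for the 20 higher and 12 lower genes taken by the fixed rule; each point is 1 library. Timp3 reaches a mean of 2.61 and Mmp3 a mean of -4.84, and the points of a gene lie on 1 side of 0 because the rule asked for it.

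Other genes taken by the rule were secreted or metabolic. Sfta2, a surfactant-associated secreted protein, stood at 165, 306, 176 and 105 CPM against 46.6, 42.8, 60.8 and 34.6 CPM (mean log2 ratio 1.93). Gstk1, a glutathione transferase of mitochondria and peroxisomes, stood at 66.7, 98.2, 93.7 and 66.6 CPM against 21.3, 21.3, 16.9 and 13.2 CPM (2.10). Myh14, a non-muscle myosin heavy chain of epithelia, stood at 197, 226, 205 and 294 CPM (1.60). Sfta2 ranged most between libraries (SD of the log2 ratio 0.60, n = 4 libraries), against 0.35 for Gstk1 and 0.36 for Myh14. Kng2 (a kininogen, 1.96), Npw (neuropeptide W, 1.93), Osbpl6 (an oxysterol-binding protein relative, 2.02), Slc16a12 (a monocarboxylate transporter family member, 1.803), Pkhd1 (fibrocystin, 1.97), Lgmn (the lysosomal protease legumain, 1.73), Nceh1 (a neutral cholesterol ester hydrolase, 1.40), Gde1 (a glycerophosphodiesterase, 1.44), Apbb1 (an adaptor of the amyloid precursor protein, 1.36), Ifit1bl2 (an interferon-induced gene relative, 2.34) and 2510009E07Rik (1.66) completed the list with Acta2 and Guca2a.

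Acta2, Guca2a and Ifit1bl2 rested on few cells. Acta2, smooth muscle actin, stood at 217, 32.8, 38.9 and 15.7 CPM in the A2ml1 cells and at 26.4, 10.96, 2.00 and 2.35 CPM in the others, and was detected in 43 of 92, 2 of 7, 5 of 27 and 2 of 15 A2ml1 cells. With at least 5 markers required its mean log2 ratio was 0.02 instead of 2.64. Of the 8 smooth muscle marker genes, 5 were at 0 in the A2ml1 cells, and the summed level of the list was 218, 32.8, 38.9 and 17.0 CPM, nearly all of it Acta2. Guca2a, the gut peptide guanylin, stood at 7.04, 14.6, 42.3 and 43.6 CPM (3.03), and 30 of its 36 UMIs in mA1 library 2 came from 1 cell. Ifit1bl2 was detected in 24 of the 141 A2ml1 cells. Of its UMIs, 27 of 43 in mA1 library 1 and 13 of 16 in mA1 library 2 came from 1 cell each. Surfactant-high epithelial cells, with at least 100 surfactant UMIs and no fewer of these than keratin UMIs, were in neither class. Their mean over the libraries was 407 CPM for Sfta2, 86.1 for Kng2, 70.3 for Npw and 100 for Tmem213, above every A2ml1 value. These genes were thus not particular to A2ml1 cells. Timp3 (79.7), Clic3 (137), Clic5 (136) and Psca (6.81) lay below every A2ml1 value. Ager (953), A2ml1 (112) and S100g (367) lay within their range.

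On the lower side, Mmp3, a matrix metalloproteinase also called stromelysin, was at 0, 0, 4.57 and 0 CPM in the A2ml1 cells and at 69.4, 17.0, 121 and 23.3 CPM in the other keratin-gated cells. Its mean log2 ratio was -4.84, but -0.97 against the cells with fewer than 4 inflammatory genes, in which it stood at 4.08, 15.2, 0 and 0 CPM. Mmp3 was detected in only 7.93% of the other keratin-gated cells. In those of Con library 1, 214 of its 499 UMIs came from 1 cell. Fbln2, a fibulin of the matrix, had no UMI in any A2ml1 cell and 371 in the others, where it stood at 7.78, 8.48, 39.7 and 28.8 CPM. This makes it at least 30.3-fold lower with a floor of 3 UMIs over the 4 libraries together. Only 8.62% of the other keratin-gated cells had a Fbln2 UMI. Cpe, carboxypeptidase E of secretory granules, was at 14.8, 0, 0 and 0 CPM against 114, 43.9, 61.4 and 43.5 CPM. Thus 3 of the 4 libraries had no Cpe transcript in their A2ml1 cells.

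Onecut2, a transcription factor of liver and gut development, stood at 4.02, 10.9, 14.9 and 1.21 CPM in the A2ml1 cells and at 64.8, 143, 95.7 and 74.3 CPM in the others, a mean log2 ratio of -3.75 ± 1.02 (SD, n = 4 libraries). The classes did not overlap, which the rule that took the gene favoured. Cldn2, a pore-forming claudin of leaky epithelia, stood at 1.68, 21.8, 1.14 and 2.42 CPM against 21.8, 105, 44.8 and 17.3 CPM (-3.04). Nfkbiz, an inducible regulator of NF-kB, stood at 7.04, 10.9, 6.86 and 12.1 CPM against 31.3, 62.7, 55.7 and 62.1 CPM (-2.39). The remaining lower genes were Kcnn4 (a calcium-activated potassium channel, -3.65), Anxa10 (an annexin of the stomach, -3.93), Csf2 (the cytokine GM-CSF, -3.01), Mir100hg (a long RNA that hosts microRNAs, -2.88), Gm20186 (-2.80) and Il18rap (a chain of the interleukin 18 receptor, -2.62). Against the cells with fewer than 4 inflammatory genes the mean log2 ratio was -0.26 for Gm20186, -1.14 for Il18rap and -1.52 for Nfkbiz.

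The lists of genes fixed for this tissue gave the following picture, with gate genes left out of each. The shares to set them against are 16.3% of all genes higher and 12.7% lower in 4 of 4 libraries. Of 27 AT1 genes, 19 passed the CPM floor, and of these 9 were higher and 1 was lower in 4 of 4 libraries, with a median mean log2 ratio of 0.49 against 0.0061 for all genes. Of 20 AT2 genes, 14 passed, and 8 were higher and 1 lower (median 0.76). A gene that passed the floor only through one class had to differ, so these counts are no support for a difference. AT1 and AT2 genes were thus both more often higher than lower. The AT1 list was not uniform: Pdpn, the gene of the AT1 surface protein podoplanin, stood at 28.8, 0, 40 and 42.4 CPM against 24.7, 29.4, 23.4 and 29.7 CPM, Cav1 (caveolin) had a mean log2 ratio of -0.48, and Sema3e, a semaphorin, was lower in 4 of 4 libraries (-1.19). The 7 A2ml1 cells of Con library 2 had no UMI of Pdpn, Col4a3, Col4a4, Spock2 or Limch1. Of the AT1 genes named here, the gate genes Hopx and Ager were thus high by selection. Ager in Con library 2 was still near the other cells, at 94.6 against 86.7 CPM. Outside the gate Aqp5, Clic5 and Rtkn2 were high, Pdpn was near the level of the other cells and Cav1 was lower on average. AT2 transcripts were also present. The surfactant-high cells, which were chosen by surfactant genes, had a mean of 38902 CPM of Sftpc and 11625 CPM of Sftpb, above every A2ml1 value.

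**Figure D3:**
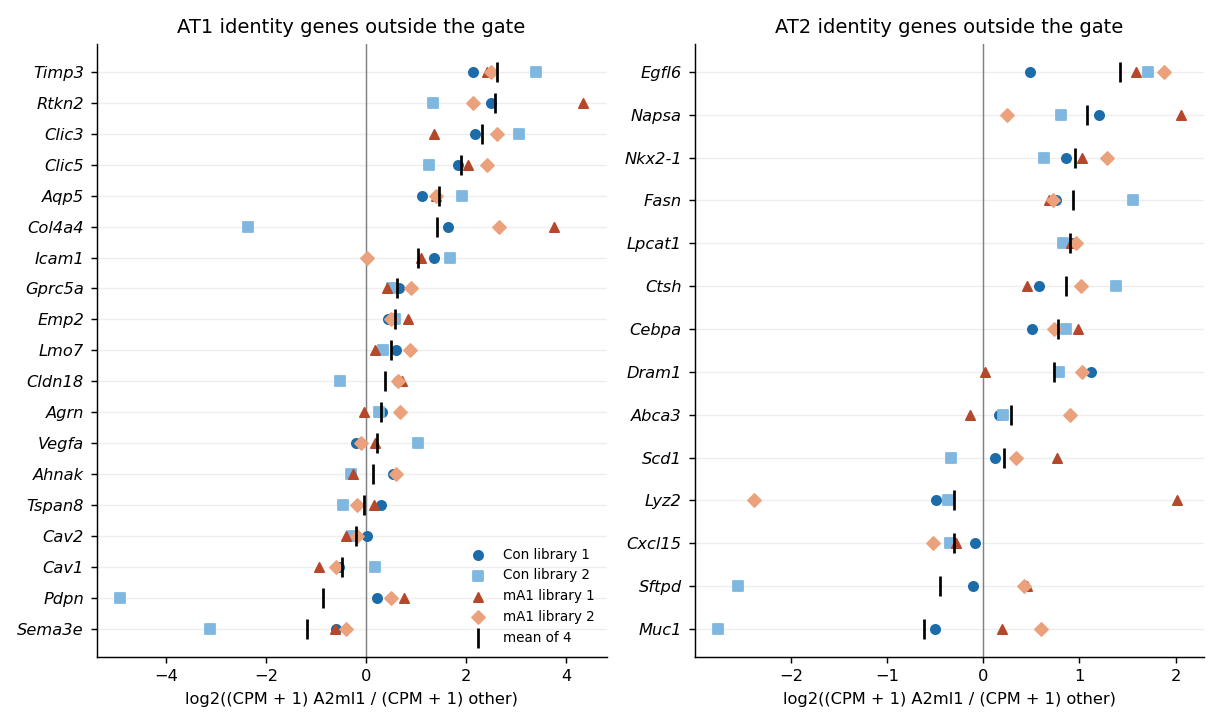
Log2 ratio of CPM + 1, A2ml1 cells over other keratin-gated cells, in each of the 4 libraries (points) for AT1 genes and AT2 genes outside the gate. Of the genes above the floor, 9 of 19 AT1 genes and 8 of 14 AT2 genes lie above 0 in 4 of 4 libraries.

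Of 14 lineage factors of the lung that passed the floor outside the gate, 5 were higher and 2 lower in 4 of 4 libraries. Their median mean log2 ratio was 0.12. For all genes the shares were 16.3% higher and 12.7% lower. Nkx2-1, the homeodomain factor that maintains lung identity, stood at 206, 124, 177 and 191 CPM against 113, 79.7, 86.3 and 77.7 CPM (mean log2 ratio 0.95 ± 0.28, SD, n = 4 libraries). Cebpa, a factor of AT2 differentiation, had a mean log2 ratio of 0.77, whereas Sox9, a factor of distal lung progenitors, was lower in 4 of 4 libraries (-0.96). Ctsh, the cathepsin that processes surfactant proteins, had a mean log2 ratio of 0.86. Several genes of tumour progression were lower in the A2ml1 cells. Vim, the mesenchymal intermediate filament vimentin, stood at 27.5, 14.6, 16.0 and 3.63 CPM against 75.1, 59.4, 78.3 and 195 CPM (-2.75). Hmga2, a chromatin protein of embryonic and advanced tumour cells, stood at 13.4, 80.1, 3.43 and 3.63 CPM against 187, 86.5, 180 and 101 CPM. Con library 2 was at the level of the other cells, but 19 of its 22 Hmga2 UMIs in A2ml1 cells came from 1 cell. The related gene Hmga1 had a mean log2 ratio of -1.50 and Spp1, the secreted phosphoprotein osteopontin, of -2.02. Of 9 genes of the EMT and progression list that passed the floor, 4 were lower and 1 higher in 4 of 4 libraries (median -0.96). Of 8 high plasticity genes 3 were lower and 0 higher (median -0.77). The sums over the whole lists did not all go that way. In cells thinned to 5000 UMIs each, the median EMT and progression sum was 5, 7, 7 and 6 UMIs in A2ml1 cells. In the others it was 5, 5, 5 and 4.5 UMIs. The high plasticity sum was 3, 12, 6 and 4 against 7, 6, 9.5 and 7, higher only in Con library 2.

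Of 13 chemokines and cytokines outside the gate, 7 were lower and 0 higher in 4 of 4 libraries (median mean log2 ratio -1.10), beside 12.7% lower among all genes, and of 11 NF-kB response genes 5 were lower and 1 higher (-0.78). The higher gene was Icam1, the adhesion molecule for leukocytes, at 163, 306, 288 and 115 CPM against 63.4, 94.8, 135 and 114 CPM. The gate removed cells by the inflammatory transcripts Cxcl1 and Cxcl3, among others, so these levels are not independent of the selection. Against cells with fewer than 4 inflammatory genes, the median was -0.34 for the chemokines and cytokines and -0.52 for the NF-kB genes. In that comparison Icam1 was higher by 1.74 on average and Spp1 lower by a mean log2 ratio of -2.33.

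Matrix and cytoskeletal genes were mixed, and their counts stand beside 16.3% of all genes higher and 12.7% lower in 4 of 4 libraries. Sparc, a collagen-binding matrix protein, stood at 330, 608, 687 and 1145 CPM against 175, 272, 253 and 216 CPM (1.48). Of its 946 UMIs in the A2ml1 cells of mA1 library 2, 507 came from 1 cell. Of 12 basement membrane genes, 5 were higher and 1 lower in 4 of 4 libraries (median 0.34). Of 15 targets of YAP and TAZ, the mechanically regulated factors needed for AT1 identity, 5 were higher and 3 lower (median 0.32, and 0.18 against the cells with fewer than 4 inflammatory genes). Ccn1 was one of the higher targets (1.09). Tpm2, a tropomyosin, had a mean log2 ratio of 1.01. Of 8 integrin genes 3 were lower and 1 higher (-0.46), among them Itga3, a laminin-binding chain, at 50.3, 65.5, 84.6 and 59.3 CPM against 124, 126, 193 and 159 CPM. Of 17 genes of the transitional alveolar state, 3 were higher and 4 lower (-0.22, and 0.18 in that comparison). Of 7 cell cycle genes that passed, 0 were higher and 3 lower (-0.21, and -0.05 in that comparison).

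Markers of other cell types were given beside these values to show what else the barcodes held. Of 10 fibroblast and pericyte markers 8 were at 0 in all A2ml1 cells, as were 5 of 9 endothelial markers and 6 of 8 dendritic cell markers. Summed macrophage markers stood at 235, 149, 1162 and 76.3 CPM in the A2ml1 cells, against 355, 162, 326 and 412 CPM in the others. The high value of mA1 library 1 went with 1 A2ml1 cell that held 130 of 130 C1qa, 117 of 121 C1qb and 90 of 90 C1qc UMIs, genes of the macrophage complement component C1q. Summed T and NK cell markers stood at 21.8, 106, 27.4 and 19.4 CPM, and club cell markers at 24.8, 32.8, 10.3 and 142 CPM. EGFP, a fluorescent reporter sequence in the deposited feature list, was detected in 5.43%, 71.4%, 11.1% and 66.7% of the A2ml1 cells, in 11.99%, 47.8%, 19.1% and 34.6% of the others and in 0.265% to 0.603% of T cells, so its libraries split by library number and not by group.

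AT1 genes that the gate did not use rose from cells with no marker to cells with 3, and changed little from 3 to 6. Cells were thinned to 5000 UMIs each (140 of the 141 A2ml1 cells and 545 of the 580 others were deep enough). The 4 libraries were pooled for these means, with 92 A2ml1 cells from Con library 1. Cells are not replicates here, and the course over marker number was not taken per library. Summed AT1 genes outside the gate averaged 14.9 UMIs in the 89 keratin-gated cells with no marker, 19.3 with 1, 22.7 with 2 and 33.2 with 3, all with fewer than 4 inflammatory genes. They averaged 36.4 with 4 markers (64 cells), 37.6 with 5 (46 cells), 35.8 with 6 (25 cells) and 46.8 with 7 (5 cells), and 22.8 in the 265 cells with 4 or more inflammatory genes. The step at the gate was therefore small, and cells with 3 markers, which the gate left out, were close to those with 4. Summed AT2 genes went from 4.61 with no marker to 14.6 with 3 and 11.3 with 4, so both alveolar programmes were lowest in cells without markers. Marker detection was counted before thinning and the median depth before thinning also differed between these groups of cells, from 18200 UMIs with no marker to 42790 with 6. Per library, the median of the thinned AT1 sum was 32, 32, 37 and 36 UMIs in A2ml1 cells and 19, 25, 17 and 22 in the others, and 90.1%, 85.7%, 81.5% and 80.0% of A2ml1 cells lay above the median of the others.

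**Figure D4:**
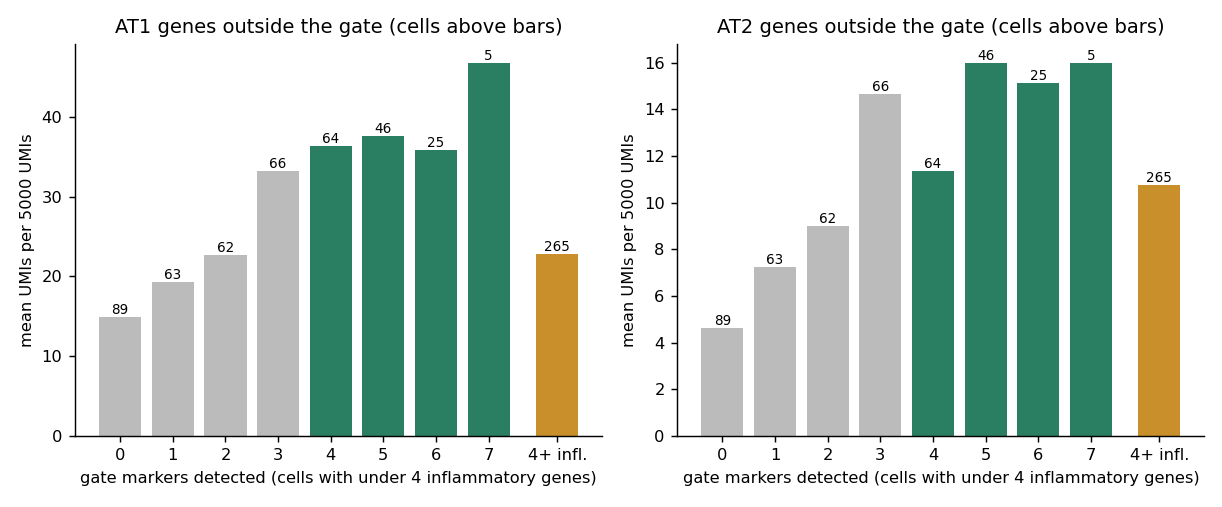
Mean UMIs per 5000 of summed AT1 genes and summed AT2 genes outside the gate, by the number of the 7 markers detected in a keratin-gated cell, with the cells rich in inflammatory genes as a group of their own. Cells of all libraries are pooled. The AT1 sum goes from 14.9 with no marker to 33.2 with 3 and 36.4 with 4.

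The hashtag antibodies gave counts that the gate did not use directly. They bind CD45, a leukocyte protein, and MHC class I, which most cells carry, and their 15-base oligonucleotides are printed because most A2ml1 cells could not be given to a tumour by them.
hashtag 1: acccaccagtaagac
hashtag 2: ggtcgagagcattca
The median summed hashtag count was 157, 127, 239 and 236 in the A2ml1 cells, against 130.5, 176, 188 and 248 in the other keratin-gated cells and 1512, 1733, 1504 and 2352 in T cells. Both epithelial classes were thus far below T cells. The gate limited Ptprc, the gene of CD45, and the T cells were chosen with it detected, so this gap is not independent of the selection. Compared with the other keratin-gated cells, A2ml1 cells were higher in 2 libraries and lower in 2. The mean difference of log10 medians, A2ml1 minus other, was 0.0053 ± 0.112 (SD, n = 4 libraries; exact two-sided sign-flip permutation p = 1, smallest possible 0.13). A single hashtag was assigned to 27.2%, 14.3%, 33.3% and 33.3% of A2ml1 cells, against 86.1% to 90.7% of all cells that passed the limits.

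The comparison of mA1 with Con asks whether guides against Malat1 changed these cells. Malat1 itself is reported first. It stood at 53069 and 17352 CPM in the A2ml1 cells of Con and at 25406 and 96950 CPM in those of mA1. The groups overlapped, with the highest and the second lowest library both mA1, and the log2 fold change was 0.73 ± 0.98 (SE; edgeR quasi-likelihood adjusted p = 0.944). The A2ml1 cells thus did not show a Malat1 difference larger than the spread between libraries, nor did the other keratin-gated cells (38445, 25820, 25590 and 36888 CPM; log2 fold change -0.03, edgeR adjusted p = 0.998). Without mA1 library 2 the log2 fold change was -0.54, and without mA1 library 1 it was 1.39 with an edgeR adjusted p of 0.0190. Neat1, the neighbouring nuclear RNA, had a log2 fold change of 0.19 (edgeR adjusted p = 0.961).

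Of 7432 genes tested in the A2ml1 cells, 4 (0.0538%) passed an adjusted p of 0.05 in edgeR, 2 higher and 2 lower in mA1, and 513 had an unadjusted p below 0.05. Tspan12, a tetraspanin that promotes Norrin and beta-catenin signalling, fell. It stood at 65.4 and 54.6 CPM in Con and at 1.14 and 0 CPM in mA1 (log2 fold change -6.55 ± 0.75, SE; edgeR adjusted p = 0.00537). It was detected in 58 of 92 and 6 of 7 A2ml1 cells of Con and in 1 of 27 and 0 of 15 of mA1. With 210 UMIs in Con and 1 in mA1, the ratio of Con to mA1 was 110 (exact 95% interval 19.5 to 4353, counting error only). The other keratin-gated cells went the same way, at 50.04 and 38.5 against 9.14 and 5.34 CPM, without passing the test (log2 fold change -2.64, edgeR adjusted p = 0.0757).

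Vcam1, the vascular cell adhesion molecule that binds integrins of leukocytes, fell as well. Its levels were 56.0 and 61.9 CPM in Con and 4.57 and 6.05 CPM in mA1 (log2 fold change -3.51 ± 0.51, SE; edgeR adjusted p = 0.0318). It was detected in 36 of 92, 3 of 7, 3 of 27 and 4 of 15 A2ml1 cells. In the other keratin-gated cells it stood at 32.7, 82.3, 75.7 and 86.6 CPM, lowest in a Con library.

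Both genes that rose encode mucins or mucin-like proteins. Muc1, a transmembrane mucin of AT2 and glandular cells, stood at 65.7 and 50.9 CPM in Con and at 283 and 366 CPM in mA1 (log2 fold change 2.36 ± 0.34, SE; edgeR adjusted p = 0.0318), and was detected in 41 of 92, 5 of 7, 21 of 27 and 14 of 15 A2ml1 cells. In the other keratin-gated cells it stood at 93.5, 351, 248 and 240 CPM, with a log2 fold change of 0.13. Mucl3, a mucin-like gene, stood at 25.2 and 36.4 CPM in Con and at 302 and 506 CPM in mA1 (3.74 ± 0.42, SE; edgeR adjusted p = 0.00537). It was confined to 10 of 92, 2 of 7, 7 of 27 and 4 of 15 A2ml1 cells, and 395 of its 418 UMIs in mA1 library 2 (94.5%) came from 1 cell.

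The call for these genes was not equally firm. Without the cells with shared barcodes, Tspan12 passed (log2 fold change -6.17, edgeR adjusted p = 0.0134). Vcam1 (-3.67, edgeR adjusted p = 0.0501), Muc1 (1.78, edgeR adjusted p = 0.395) and Mucl3 (2.597, edgeR adjusted p = 0.808) did not. With at least 5 markers required, Muc1 did not pass (edgeR adjusted p = 0.251). Con library 2 gave only 15 Tspan12, 17 Vcam1, 14 Muc1 and 10 Mucl3 UMIs.

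**Figure D5:**
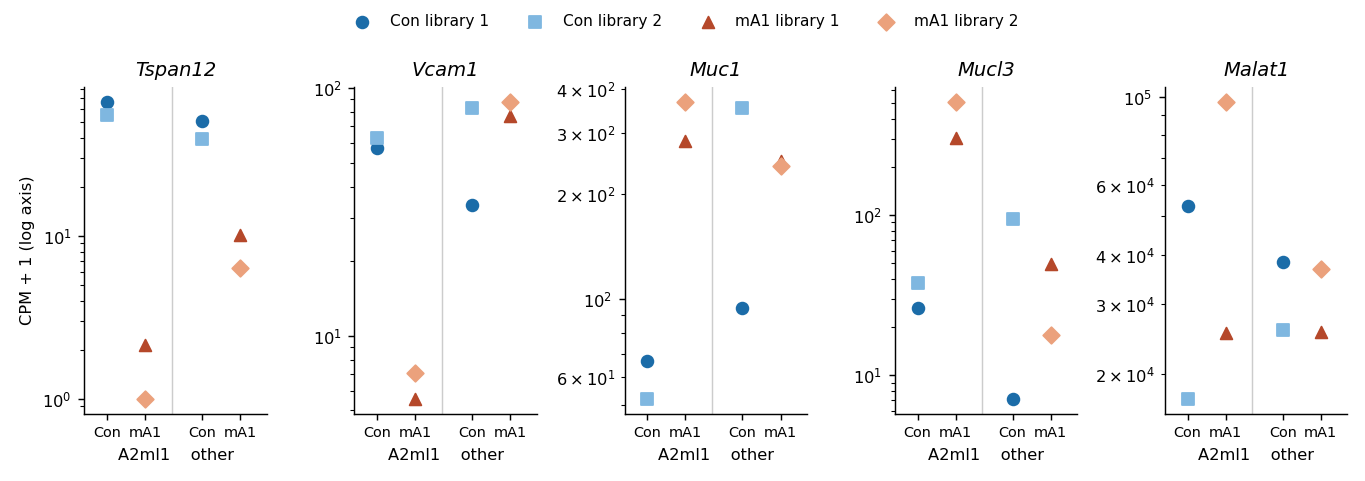
CPM + 1 (log axis) of Tspan12, Vcam1, Muc1, Mucl3 and Malat1 in the A2ml1 cells and in the other keratin-gated cells, 1 point per library, Con and mA1. In A2ml1 cells Tspan12 stands at 65.4 and 54.6 CPM in Con against 1.14 and 0 in mA1, while Malat1 overlaps between the groups.

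The genes next in order did not pass the test. Ckmt1, the mitochondrial creatine kinase, stood at 48.3, 29.1, 233 and 168 CPM (log2 fold change 2.19, edgeR adjusted p = 0.103). Igfbp5, an insulin-like growth factor binding protein, stood at 10.40, 0, 122 and 72.6 CPM (3.47, edgeR adjusted p = 0.103), and Il18, the inflammasome cytokine, at 5.70, 7.28, 38.9 and 60.5 CPM (2.98, edgeR adjusted p = 0.110). Gsto1 (a glutathione transferase, 1.83), Pcolce (an enhancer of procollagen processing, 2.41) and Palmd (palmdelphin, 2.30) had edgeR adjusted p values of 0.115, 0.115 and 0.118. For each of these 6 genes the lower mA1 value lay above the higher Con value. They were taken by their small p in this same comparison, so the separation adds no evidence. In mA1 library 2, 43 of 60 Igfbp5 UMIs and 43 of 50 Il18 UMIs came from 1 cell. For Gsto1, 478 of 815 UMIs in mA1 library 2 and 402 of 864 in mA1 library 1 came from 1 cell each.

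The gate genes get no test here, since their detection chose the cells. Of 28 AT1 genes in the fit, among them the gate genes Hopx, Ager and Akap5, 0 passed in edgeR, with 19 positive and a median log2 fold change of 0.23, beside 3699 positive of 7432 and a median of -0.0025 for all genes. Of 18 AT2 genes, among them the gate genes Sftpa1, Sftpb and Sftpc, only Muc1 passed, with 9 positive and a median of -0.08. Since gate genes are included, these counts and medians are a description.

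Lists related to immunity and stress held no gene that passed, and are given as counts, beside 3699 positive and 3733 negative of all 7432 genes. The 9 interferon response genes tested were all positive (median 0.86), but 79 of 88 UMIs of Ifit3 in mA1 library 1 came from 1 cell. Of 10 MHC class I genes 8 were positive (0.90), and the 6 MHC class II genes were all positive (0.73), among them Cd74, the invariant chain, at 291, 157, 750 and 490 CPM. Markers of macrophages, cells that carry class II, were high in mA1 library 1 (1162 CPM summed), and their part in these values was not tested. Of 13 genes of the ATF4 stress response 12 were negative (-1.02). Phgdh, the first enzyme of serine synthesis, stood at 338 and 691 CPM in Con and at 57.1 and 132 CPM in mA1 (log2 fold change -2.53, edgeR adjusted p = 0.225). Psat1, the next enzyme, stood at 110 and 98.2 against 25.1 and 38.7 CPM (-1.80, edgeR adjusted p = 0.158). In the A2ml1 cells of Con library 2, 121 of 190 Phgdh UMIs and 16 of 27 Psat1 UMIs came from 1 cell each.

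Whether the mA1 and Con difference in A2ml1 cells was another one than in the remaining keratin-gated cells was tested by an interaction of class and group with library as a block. Of 11226 genes, 26 (0.232%) passed an adjusted p of 0.05 in edgeR, 16 with a more positive and 10 with a more negative difference in A2ml1 cells. Without the cells with shared barcodes 13 genes passed, 10 of them among the 26. Vcam1 had the smallest p, with an interaction of -4.30 on the log2 scale (edgeR adjusted p = 6.22e-06): it was low in the A2ml1 cells of mA1 only. Phgdh had -2.36 (edgeR adjusted p = 0.0105), with the other keratin-gated cells at 328, 314, 268 and 319 CPM. Of its 190 UMIs in the A2ml1 cells of Con library 2, 121 came from 1 cell. Phgdh did not pass without the cells with shared barcodes (-1.91, edgeR adjusted p = 0.653), nor with at least 3 (-2.27, 0.373) or at least 5 markers required (-1.49, 0.0810). Cxcl2, a neutrophil chemokine, had -3.73 (edgeR adjusted p = 0.00782), from 21.1, 69.1, 7.999 and 6.05 CPM in A2ml1 cells and 48.9, 45.1, 140 and 118 CPM in the others, where 18 of the 19 UMIs in the A2ml1 cells of Con library 2 came from 1 cell. Cxcl2 did not pass with at least 5 markers required (-1.47, edgeR adjusted p = 1). Adcyap1, the neuropeptide PACAP, had -5.66 (edgeR adjusted p = 0.000243), from 16.8, 29.1, 0 and 1.21 CPM against 25.02, 34.1, 35.7 and 48.4 CPM. For each of these 4 genes both mA1 values of the A2ml1 cells lay below both Con values, which held for none of them in the other cells. The genes were taken by their p in this interaction, so that pattern adds no evidence.

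Among interactions of the other sign, Meg3, a maternally expressed long RNA, had 2.07 (edgeR adjusted p = 0.00259), from 326, 98.2, 464 and 375 CPM in A2ml1 cells and 194, 141, 96.8 and 68.3 CPM in the others, and did not pass with at least 3 markers required (1.20, edgeR adjusted p = 0.301). C1qc (9.41) and C1qb (6.54) rested on the single A2ml1 cell of mA1 library 1 described above; without it C1qb had 1.82 with an edgeR adjusted p of 1. Tspan12 did not pass the interaction, so its difference was not shown to be particular to the A2ml1 cells.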

How the data were processed

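Gene expression and hashtag antibody counts of 4 libraries (10x 3' v3) were used. The authors deposited unnormalized UMI counts per gene and barcode; Cell Ranger 6.0.1 and the mm10 build are named in the submitters' processing notes. Cells with at least 500 UMIs, 250 genes and at most 15% mitochondrial UMIs were kept. The deposited counts of A2ml1 cells and of other keratin-gated cells were summed per library. The groups were compared with edgeR 4.0.16 (R 4.3.3; TMM, filterByExpr, robust quasi-likelihood, Benjamini-Hochberg adjustment over all genes tested), checked on simulated counts, with DESeq2 1.42.0 as an alternative. Ratios between classes used CPM + 1 and a floor of 20 CPM. Doublets were scored with Scrublet in scanpy 1.11.5. Named genes were the gate genes, the 20 highest and 12 lowest by the log2 ratio nearest 0 of the 4 libraries, the called genes or 10 smallest p, up to 6 interactions per direction, and up to 4 members per list; genes named beyond these were chosen after their values were seen. The cells and lists were chosen with earlier results of these data known. No row lacked a gene name. Alternatives were other gates, filters, normalizations and left-out libraries; leaving out shared barcodes or the C1q-rich cell was chosen after seeing the data.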

Additional observations from a re-analysis of the deposited data

Results flagged for a closer look

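The following genes had an mA1 minus Con difference in A2ml1 cells that differed from that in the other keratin-gated cells by the edgeR interaction test; each value is the log2 difference of the differences. More positive values in A2ml1 cells were C1qc 9.41, C1qb 6.54, Tm4sf20 9.61, Igha 2.77, Psca 2.29 and Meg3 2.07. More negative values were Crct1 -8.65, Scgb1a1 -6.85, Adcyap1 -5.66, Vcam1 -4.30, Cxcl2 -3.73 and Phgdh -2.36. Tm4sf20, a tetraspanin-like gene, had 0, 0, 8 and 19 UMIs in A2ml1 cells, at least 17.2-fold higher in mA1 with a floor of 3 UMIs over the group. It rested on few cells: all 8 UMIs in mA1 library 1 and 14 of the 19 in mA1 library 2 came from 1 cell each. Crct1, a gene of cornified epithelia, had 235 UMIs in Con, 171 of them in 1 cell of Con library 1, and 0 in mA1, at least 40.9-fold lower with the same floor. Adcyap1 had 58 UMIs in Con and 1 in mA1, a ratio of 30.3 (exact 95% interval 5.23 to 1217, counting error only). Igha, an immunoglobulin heavy chain gene of plasma cells, stood at 48.6, 61.9, 27.4 and 13.3 CPM in A2ml1 cells and at 187, 427, 22.9 and 6.62 CPM in the others, where 1013 of 1343 UMIs in Con library 1 and 1835 of 2063 in Con library 2 came from 1 cell each. It did not pass without the cells with shared barcodes (edgeR adjusted p = 0.646). Scgb1a1, the club cell secretory protein gene, stood at 19.5, 29.1, 3.43 and 1.21 CPM in A2ml1 cells and at 2.502, 1.66, 56.0 and 1.71 CPM in the others, where 155 of 196 UMIs in mA1 library 1 came from 1 cell. Psca is a gate gene whose detection chose the cells, so its value is a description; 130 of its 147 UMIs in the A2ml1 cells of mA1 library 2 came from 1 cell, and the interaction did not pass with at least 3 or at least 5 markers required or without shared barcodes.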

How the results depend on the processing

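The 4 genes called between mA1 and Con in A2ml1 cells became 139 without a filter on low counts, 15 with DESeq2, 15 to 117 when 1 library was left out, 1 without shared barcodes and 2 on cells thinned to 5000 UMIs. The 26 class by group calls became 71 without the filter, 57 to 129 when 1 library was left out, 14 with at least 3 markers and 13 without shared barcodes. Malat1 ranged from -0.54 to 1.67 over the left-out libraries, and was 1.39 without mA1 library 1. The cause of these shifts was not tested. The numbers of genes 2-fold higher and lower than other keratin-gated cells were 21 and 22 against cells with fewer than 4 inflammatory genes, and 45 to 92 and 43 to 53 when 1 library was left out, since fewer libraries had to show the difference. The difference in share of 1.87 percentage points turned to -2.92 with at least 3 markers, -0.169 without shared barcodes and -0.583 when the gate was applied to thinned cells, and ranged from -6.50 to 10.2 with 1 library left out. The hashtag difference turned to -0.0044 with at least 40 keratin UMIs and -0.0104 with a 10% mitochondrial limit, and ranged from -0.0275 to 0.0540 with 1 library left out, negative without Con library 1 (-0.0195). The class by group value of C1qb ranged from -1.97 to 10.6 with 1 library left out, the lowest being that without mA1 library 1.

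The C1qc interaction did not pass without Con library 1 or mA1 library 1, Crct1 without Con library 1, Tm4sf20 without Con library 2 and Scgb1a1 without mA1 library 1. Over the alternatives of single genes, 503 values kept their side and direction, 24 were weaker, 31 stronger, 24 moved and 1 reversed. With the replicate number as a block, 13 genes were called and the 4 were among them. Deviations of same-numbered libraries from their group means had r = -0.086 across genes. This rests on a single pair and cannot decide whether the libraries were paired. EGFP detection in A2ml1 cells and their share of keratin-gated cells split by library number in both groups. The main fit used no pairing. Leaving out 1 library leaves a group of 1 whose spread is taken from the other group, so calls there say nothing of how firm a result is. Con library 2, with 7 A2ml1 cells and 274841 UMIs, has the lowest depth, and single cells hold most UMIs of several genes.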
